A study of Mus musculus with 24 samples.

Results

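Chemokine receptors that steer lymphocytes between blood and tissue were followed in mouse peripheral blood 24 h after x-rays. The 7 genes were Cxcr3, Cxcr4, Cxcr5, Cxcr6, Ccr1, Ccr6 and Ccr9, taken as every array probe annotated to these symbols: 9 probes of 39429 non-control probes, and 6 of the 7 genes were among the 15787 genes bright enough to test. All blood came from male C57BL/6J mice, drawn by cardiac puncture into a PAXgene RNA stabiliser, and RNA was hybridised to 1-colour Agilent arrays. The 4 groups compared were mice labelled Gadd45aKO given 7 Gy (9 arrays), mice labelled Gadd45aKO at 0 Gy (5 arrays), mice labelled Gadd45aWT given 7 Gy (5 arrays) and mice labelled Gadd45aWT at 0 Gy (5 arrays). The labels give no age, and do not say how the Gadd45a allele was made. Gadd45a is a stress gene induced by DNA damage, and the series asks whether its loss alters the blood transcripts used to gauge radiation dose.

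Chemokine receptors are G protein-coupled receptors that couple mainly to Gi proteins and move leukocytes up gradients of chemokines. Each lymphocyte class carries its own set: Cxcr5 and Ccr6 are prominent on B cells, Cxcr3 and Cxcr6 on activated T cells and NK cells, Ccr9 on cells bound for the thymus and small intestine, Ccr1 on myeloid cells, while Cxcr4 is carried by most leukocytes and holds cells in bone marrow. Blood lymphocytes, B cells above all, are among the most radiosensitive cells of the body, so these receptors are read here from blood in which the cell mix itself can shift. In whole blood, fewer cells of a type and less RNA per cell cannot be told apart.

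Between 25.7% and 50.9% of the probes were well above background on each of the 24 arrays, whose number limits the precision. Arrays 1 and 4 of the KO-labelled 0 Gy group differed only 1.02 times as much as repeat spots of an array do, so they were averaged and counted as 1 sample, which left n = 4 in that group. Nothing says that arrays came from separate animals beyond the phrase independent experiments, so each p-value covers the spread among these samples, which may be technical. Gadd45a itself averaged 0.02 ± 0.34 (SD, n = 9) in KO-labelled 7 Gy arrays and 0.52 ± 0.16 (n = 4) in KO-labelled 0 Gy arrays, against −1.19 ± 0.32 (n = 5) in WT 7 Gy arrays and 0.67 ± 0.24 (n = 5) in WT 0 Gy arrays. The KO-labelled level at 0 Gy differed from WT by −0.15 ± 0.21 (SE, limma adjusted p = 0.853) and at 7 Gy it was higher by 1.21 ± 0.17 (adjusted p = 4.77e-05), so the genotype is given by label only. Whether the probe lies inside the deleted part is not known here. WT 7 Gy replicates 1 and 2 stood apart from replicates 3 to 5, whose summed hepatocyte marker level was 6.39 to 6.56 on the log2 scale against 2.44 and 2.50. The first 5 replicates of each group lie on 5 slides that hold 1 array of every group, and KO-labelled 7 Gy replicates 6 to 9 share a slide of their own.

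The probes are 60 bases long. For the members on which the results turn, 30 bases of each are shown, with coordinates of the whole probe in mm9, the build in the scanner files. Capitals mark the 10 bases of each Cxcr6 probe that the other lacks, as these 2 probes share 50 bases.
Cxcr3 (chrX:98926920-98926979, minus strand, first 30 bases): gccaggcgttgtcagcactgaatgtgccca
Cxcr6, upstream probe (chr9:123720709-123720768, plus strand, first 30 bases): AATGTATAAAacagagcttaagactttaac
Cxcr6, downstream probe (chr9:123720719-123720778, plus strand, last 30 bases): ggactctggtggctttgctcATCTAAAAAA
Cxcr4 (chr1:130485079-130485138, minus strand, first 30 bases): aggaagaaactgaacattccagaatgtgtg
Cxcr5 (chr9:44320071-44320130, minus strand, first 30 bases): gggaaaccaatgctatagcttcagagactg
Ccr6 (chr17:8449933-8449992, plus strand, first 30 bases): acacgagagcacaaagcaacattgccccaa
Ccr9 (chr9:123690334-123690393, plus strand, first 30 bases): caggcaagaggcacttgctgcaggttctcc

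Levels are log2 values of the processed signal, relative to the 75th percentile of 7803 probes that were well above background on all arrays. A receptor was called changed at a Benjamini-Hochberg adjusted p under 0.05 over all 15787 genes in a single limma fit of the 4 groups. After 7 Gy, KO-labelled blood had 4 of the 6 tested receptors lower (Cxcr4, Cxcr5, Ccr6, Ccr9) and 0 higher, where 46.9% of all genes were called (34.6% lower). WT blood had 2 lower (Cxcr5, Ccr6) and 2 higher (Cxcr3, Cxcr6), where 23.6% of all genes were called (13.6% lower). Ccr6 was bright enough to test only through its 0 Gy arrays, which favoured a fall in this gene. The groups did not overlap for 3 receptors in KO-labelled and 4 in WT blood, beside 24.5% and 28.5% of all genes. The median change of the 6 receptors was −2.31 in KO-labelled blood and −0.16 in WT, beside −0.26 and −0.05 over all genes tested. At 7 Gy, 4 receptors were lower in KO-labelled than in WT blood (Cxcr3, Cxcr4, Cxcr6, Ccr9), with 22.4% of all genes called (17.8% lower), and the same 4 had a lower response in KO-labelled blood by the interaction term, with 15.1% called (11.9% lower, 3.19% higher). The median difference of all 6 receptors at 7 Gy was −0.85, beside −0.11 for all genes. These comparisons share arrays, so their calls are not independent of each other. Other scalings of the arrays moved the all-gene median of the KO-labelled response by 0.18 to 0.32 and that of the interaction by 0.19 to 0.33; no called receptor changed sign under them. They also moved the share of calls that were higher, to 39.3% to 46.7% against 26.3% in the KO-labelled response, to 33.9% to 48.1% against 20.5% between labels at 7 Gy, and to 40.7% to 60.4% against 21.2% for the interaction.

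**Figure D1:**
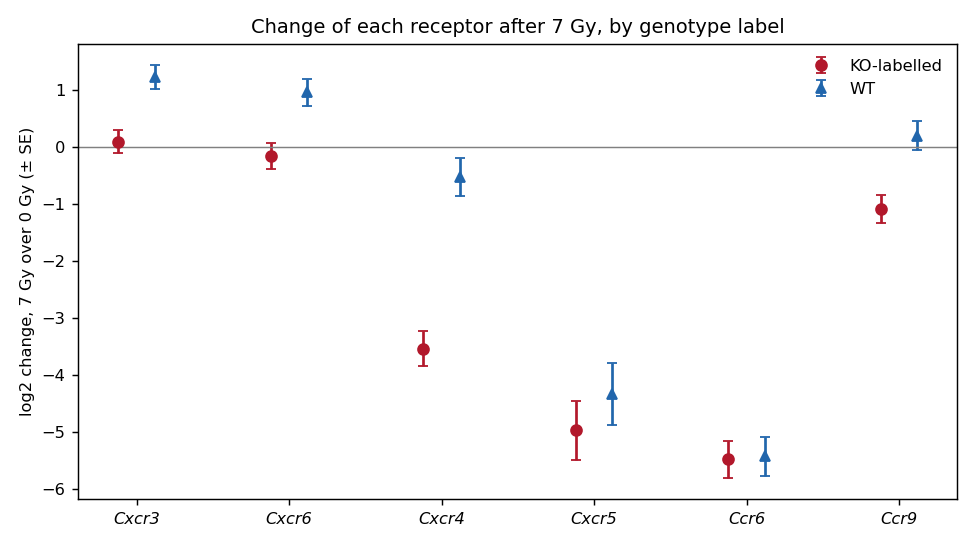
Log2 change of each receptor (7 Gy over 0 Gy, vertical axis, limma estimate ± SE) in KO-labelled blood (circles) and WT blood (triangles). Cxcr5 and Ccr6 lie far below 0 for both labels, while Cxcr4 was −3.54 in KO-labelled and −0.52 in WT blood.

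Cxcr3, the receptor for the interferon-induced chemokines Cxcl9, Cxcl10 and Cxcl11, rose in WT blood. Its level in KO-labelled 7 Gy blood was −1.97 at the lowest, −1.39 at the median and −1.15 at the highest, against −1.75, −1.73, −1.75 and −0.95 in KO-labelled 0 Gy blood. In WT 7 Gy blood, replicates 1 to 5 read −0.10, 0.0045, −0.82, −0.78 and −0.84, against −1.84, −1.74, −1.73, −1.70 and −1.71 in WT 0 Gy blood. All irradiated WT samples were above all unirradiated WT samples, and replicates 1 and 2 were the highest of the study. In KO-labelled blood the groups overlapped, and replicate 5 at 0 Gy stood above every irradiated KO-labelled sample. The change was 0.10 ± 0.20 (SE, adjusted p = 0.712) in KO-labelled blood and 1.24 ± 0.21 (2.36-fold, adjusted p = 0.000128) in WT, where it was 0.87 to 1.75 within the 5 slides. At 7 Gy, Cxcr3 was 1.92-fold lower in KO-labelled than in WT blood (−0.94 ± 0.19, adjusted p = 0.000939), with no overlap between the groups, which was so for 6.04% of all genes.

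Cxcr6, the receptor for Cxcl16 on tissue-homing T and NK cells, also rose in WT blood. On its brighter, downstream probe, KO-labelled 7 Gy blood read −1.36 at the lowest, −0.84 at the median and −0.47 at the highest, against −0.95, −0.70, −1.06 and −0.26 in KO-labelled 0 Gy blood. WT 7 Gy replicates 1 to 5 read 0.59, 0.52, −0.66, −0.61 and −0.53, against −1.27, −1.03, −1.08, −1.12 and −0.99 in WT 0 Gy blood. As for Cxcr3, the WT groups did not overlap, replicates 1 and 2 at 7 Gy were far above the other three, and the KO-labelled groups overlapped. The change was −0.16 ± 0.23 (adjusted p = 0.602) in KO-labelled blood and 0.96 ± 0.24 (1.95-fold, adjusted p = 0.00477) in WT, and was 0.43 to 1.86 within slides in WT. At 7 Gy, Cxcr6 was 1.69-fold lower in KO-labelled than in WT blood (−0.76 ± 0.21, adjusted p = 0.0120). Without WT 7 Gy replicates 1 and 2, the WT change was 0.50 (adjusted p = 0.0738) and the 7 Gy difference −0.30 (adjusted p = 0.287), both short of the threshold. Leaving out either replicate alone also ended the call at 7 Gy (adjusted p = 0.0523 without replicate 1 and 0.0513 without replicate 2), as did each other scaling.

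The 2 Cxcr6 probes ran in parallel but for a single array, the upstream probe reading lower on every array. KO-labelled 7 Gy replicate 5 read −6.01 on the upstream probe and −0.82 on the downstream probe, where the upstream probe was not well above background, although they share 50 of 60 bases. With the upstream probe as its own feature, the WT change was 0.90 ± 0.59 (adjusted p = 0.315) and the 7 Gy difference −1.22 ± 0.52 (adjusted p = 0.0974). Neither was called on that probe.

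**Figure D2:**
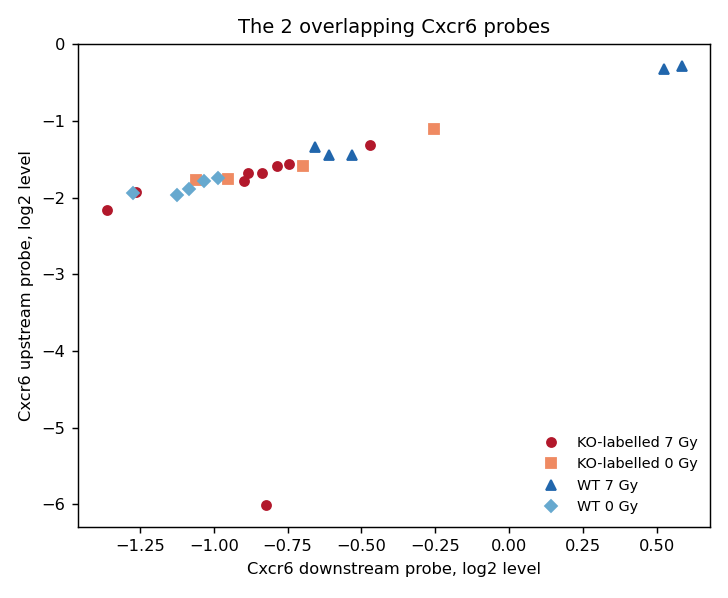
Log2 level of the upstream Cxcr6 probe (vertical axis) against the downstream one (horizontal axis), 1 point per sample, by genotype label and dose. All points lie near a line except KO-labelled 7 Gy replicate 5, at −6.01 on the upstream probe.

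The 250 bases before the RefSeq start of these 2 genes are shown because the genes moved together. Capitals mark matches on either strand to TGTGGT, the core of RUNX sites, which 14.0% of 32851 promoter windows of this length hold. The Ccr1 window also holds a match, 58 bases before its start. The motifs were picked after the sequences had been seen, and a match is no evidence of binding.
Cxcr3 (GRCm38.p6, chrX:101734148-101734397, minus strand): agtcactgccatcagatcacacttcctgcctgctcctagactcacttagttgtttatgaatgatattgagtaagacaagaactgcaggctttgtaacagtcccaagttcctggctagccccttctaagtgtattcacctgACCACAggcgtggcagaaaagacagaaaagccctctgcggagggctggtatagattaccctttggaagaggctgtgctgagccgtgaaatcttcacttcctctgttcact
Cxcr6 (GRCm38.p6, chr9:123806227-123806476, plus strand): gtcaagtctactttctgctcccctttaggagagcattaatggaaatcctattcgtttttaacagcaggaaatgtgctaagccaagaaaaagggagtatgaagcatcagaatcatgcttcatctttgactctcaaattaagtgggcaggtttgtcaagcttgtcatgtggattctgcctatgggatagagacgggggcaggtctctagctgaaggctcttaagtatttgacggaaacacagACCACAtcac

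Cxcr5, which draws B cells and follicular helper T cells to Cxcl13 in follicles, fell for both labels. KO-labelled 7 Gy blood read −8.20 at the lowest, −5.98 at the median and −4.44 at the highest, against −0.96, −0.95, −0.94 and −0.84 in KO-labelled 0 Gy blood. WT 7 Gy blood read −5.28, −4.88, −6.79, −6.51 and −6.93, against −1.58, −1.71, −1.82, −1.70 and −1.89 in WT 0 Gy blood. Neither pair of groups overlapped, and the probe was well above background on 5 of 9 KO-labelled and 4 of 5 WT arrays at 7 Gy. Cxcr5 fell by 4.98 ± 0.52 in KO-labelled blood (31.5-fold lower, adjusted p = 1.30e-07), and fell by 4.34 ± 0.55 in WT blood (20.2-fold lower, adjusted p = 2.71e-06). The difference of these responses was −0.64 ± 0.75 (adjusted p = 0.590) and was not called. With background corrected by normexp, the WT call ended (−1.46, adjusted p = 0.111).

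Ccr6, the receptor for Ccl20 on B cells and Th17 cells, was read at or near background after 7 Gy. KO-labelled 7 Gy blood read −8.17 at the lowest, −7.28 at the median and −6.11 at the highest, against −1.51, −2.07, −1.53 and −1.91 in KO-labelled 0 Gy blood. WT 7 Gy blood read −6.60, −7.32, −8.56, −8.13 and −7.15, against −2.04, −2.03, −2.23, −2.35 and −1.95 in WT 0 Gy blood. At 7 Gy the probe was well above background on 1 of 9 KO-labelled arrays and 0 of 5 WT arrays, while every array at 0 Gy was above it. Ccr6 fell in KO-labelled blood (adjusted p = 1.69e-10), by an amount these arrays do not fix, since nearly all of its 7 Gy readings were not well above background. In WT blood it was at least 24.8-fold lower (adjusted p = 3.26e-10), the dim group being taken at the lowest signal well above background on each array or its own value if higher. Ccr6 met the filter of 5 arrays only through 0 Gy arrays, so the filter favoured a fall in this gene. With readings of both 7 Gy groups near background, no size is given for the difference of the responses. Under normexp the WT call ended (−1.24, adjusted p = 0.295).

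The first of the 2 RefSeq starts of Ccr6 is shown because its window holds the octamer ATTTGCAT, a site of POU factors, marked in capitals. Of all promoter windows, 1.60% hold it on either strand. No entry for Cxcr5 was in the promoter table.
Ccr6 (GRCm38.p6, chr17:8235793-8236042, plus strand): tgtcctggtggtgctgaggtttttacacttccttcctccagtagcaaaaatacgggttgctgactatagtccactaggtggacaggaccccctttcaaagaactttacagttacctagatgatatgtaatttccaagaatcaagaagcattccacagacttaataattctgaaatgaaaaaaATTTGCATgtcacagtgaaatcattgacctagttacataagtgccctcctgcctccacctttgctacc

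**Figure D3:**
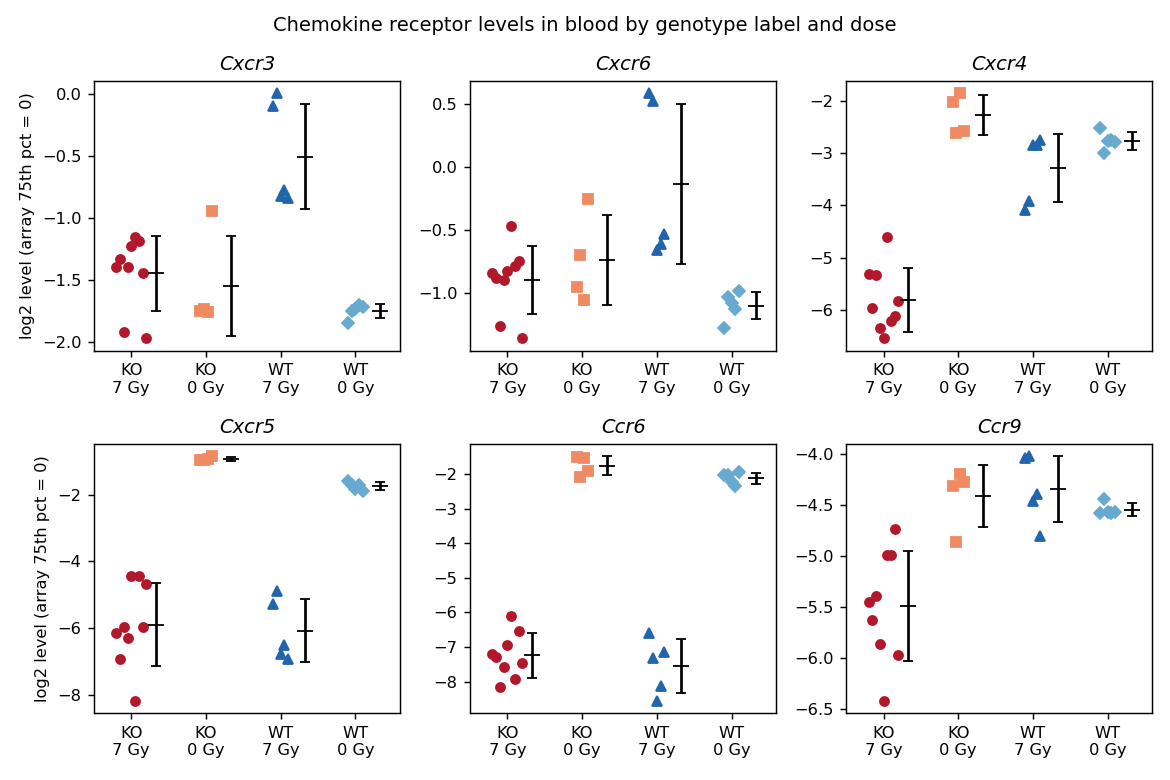
Log2 level of each tested receptor (vertical axis, array 75th percentile at 0) by genotype label and dose, 1 point per sample, with the mean and SD to the right. Cxcr5 and Ccr6 drop for both labels, Cxcr4 drops for every KO-labelled sample, and Cxcr3 and Cxcr6 are highest in WT 7 Gy replicates 1 and 2.

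Cxcr4, the receptor for Cxcl12 that retains cells in bone marrow, had the largest interaction of the 6 receptors. KO-labelled 7 Gy blood read −6.55 at the lowest, −5.97 at the median and −4.62 at the highest, against −2.03, −2.62, −1.86 and −2.57 in KO-labelled 0 Gy blood. WT 7 Gy replicates 1 to 5 read −4.09, −3.91, −2.85, −2.84 and −2.75, against −2.52, −3.00, −2.78, −2.75 and −2.78 in WT 0 Gy blood. Every irradiated KO-labelled sample was below every other sample, and WT 7 Gy replicates 1 and 2 were below all WT 0 Gy samples while replicates 3 to 5 overlapped them. The probe was well above background on 6 of the 9 KO-labelled 7 Gy arrays. Cxcr4 fell by 3.54 ± 0.31 in KO-labelled blood (11.6-fold lower, adjusted p = 1.15e-08), and the change was −4.38 to −3.22 within slides. In WT blood the change was −0.52 ± 0.33 (adjusted p = 0.283), and without replicates 3 to 5 at 7 Gy it was −1.24 (adjusted p = 0.0491). At 7 Gy, Cxcr4 was 5.74-fold lower in KO-labelled than in WT blood (−2.52 ± 0.29, adjusted p = 5.04e-06), and its responses differed by −3.02 ± 0.45 (adjusted p = 0.000626). This last call ended under normexp alone of the alternatives tried (−1.25). Under normexp the fall in KO-labelled blood (−1.20, adjusted p = 0.167) and the 7 Gy difference between labels (−0.91, adjusted p = 0.798) also ended. The window before the Cxcr4 start is shown with GC boxes (GGGCGG, in 32.7% of promoter windows) and TATA letters (TATAAA, in 12.4%) in capitals, where TATAAA and its reverse complement overlap.
Cxcr4 (GRCm38.p6, chr1:128592300-128592549, minus strand): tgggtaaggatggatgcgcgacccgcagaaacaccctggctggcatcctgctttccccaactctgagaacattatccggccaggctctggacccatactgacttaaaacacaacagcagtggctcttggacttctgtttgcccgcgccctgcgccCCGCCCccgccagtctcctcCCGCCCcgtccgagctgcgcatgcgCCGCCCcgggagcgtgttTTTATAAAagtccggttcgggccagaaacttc

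Ccr9, which guides cells to Ccl25 in thymus and small intestine, fell in KO-labelled blood. KO-labelled 7 Gy blood read −6.42 at the lowest, −5.45 at the median and −4.73 at the highest, against −4.31, −4.86, −4.19 and −4.28 in KO-labelled 0 Gy blood. WT 7 Gy blood read −4.04, −4.02, −4.46, −4.39 and −4.80, against −4.58, −4.43, −4.56, −4.57 and −4.56 in WT 0 Gy blood. The groups overlapped for both labels, by 1 dim unirradiated sample in KO-labelled blood, replicate 2. The probe was well above background on 7 of 9 KO-labelled 7 Gy arrays and on 4 of 5 KO-labelled 0 Gy arrays, all but replicate 2. Ccr9 fell by 1.08 ± 0.24 in KO-labelled blood (2.12-fold lower, adjusted p = 0.000873) and changed by 0.20 ± 0.26 in WT (adjusted p = 0.659). At 7 Gy it was 2.22-fold lower in KO-labelled than in WT blood (−1.15 ± 0.23, adjusted p = 0.000837). Its fall in KO-labelled blood ended under quantile normalization (−0.70, adjusted p = 0.0656) and turned to 0.21 under normexp (adjusted p = 0.762). The 7 Gy difference ended under normexp (−0.42, adjusted p = 0.934) and with the looser averaging of close arrays (−1.03, adjusted p = 0.0552). A second Ccr9 probe was well above background on 0 arrays.

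Ccr1, a receptor for Ccl3 and Ccl5 on myeloid cells, was well above background on 2 of 24 arrays, WT 7 Gy replicates 3 and 4, and did not pass the filter on dim probes. Its level was −8.26 to −6.74 in KO-labelled 7 Gy blood, −8.07 to −7.08 in KO-labelled 0 Gy blood, −7.27 to −5.92 in WT 7 Gy blood and −7.76 to −6.96 in WT 0 Gy blood. With no filter, Ccr1 was lower in KO-labelled than in WT blood at 7 Gy (−1.16 ± 0.27, adjusted p = 0.00863) and higher in WT 7 Gy than in WT 0 Gy blood (1.07 ± 0.31, adjusted p = 0.0294). Most of these readings were not well above background, so the sizes are uncertain.

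The responses of the other 3 receptors differed between the labels as follows: −1.14 ± 0.29 for Cxcr3 (adjusted p = 0.0130), −1.12 ± 0.33 for Cxcr6 (adjusted p = 0.0267) and −1.28 ± 0.35 for Ccr9 (adjusted p = 0.0191). Under quantile normalization none of the 3 was called (adjusted p = 0.0651 for Cxcr3, 0.0913 for Cxcr6 and 0.221 for Ccr9). Without KO-labelled 0 Gy replicate 5, the sample highest in Cxcr3 and Cxcr6 in its group, the Cxcr6 interaction was −0.96 (adjusted p = 0.0780). At 0 Gy, 0 of 6 receptors were called between the labels, where 0.291% of all genes were called (0.0823% lower), and none had an unadjusted p under 0.05. Cxcr5 was the one receptor whose groups did not overlap at 0 Gy, higher in KO-labelled blood by 0.82 ± 0.58 (adjusted p = 0.708), and 10.6% of all genes also did not overlap. Its SD was 0.06 in KO-labelled 0 Gy and 0.12 in WT 0 Gy blood, while the fit pools the spread with the 7 Gy groups, where it was 1.24 and 0.93. Within the 5 slides Cxcr5 was higher in KO-labelled 0 Gy blood by 0.64 to 1.05, and Cxcr4 (0.21 to 0.92) and Cxcr6 (0.02 to 0.73) were also higher on all 5, with the near-identical pair counted on 2 of them. A call missed by the fit therefore does not show that the labels were alike at 0 Gy.

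Markers of blood cell types moved beside the receptors, and their part in the results was not tested. All 12 of 12 B cell markers fell for both labels, where 34.6% of all genes were lower in KO-labelled and 13.6% in WT blood. Of these markers, Blk, Pax5, Ebf1, Fcer2a and Fcrla met the filter only through 0 Gy arrays, which favoured a fall in them. The markers' summed log2 level was −2.60 to 0.55 in KO-labelled 7 Gy and 3.31 to 3.71 in KO-labelled 0 Gy blood. It was −2.25 to −0.53 in WT 7 Gy and 3.02 to 3.18 in WT 0 Gy blood. Of 12 NK and cytotoxic cell markers, 2 rose and 5 fell in KO-labelled blood, where 12.4% of all genes were higher and 34.6% lower. Both counts were near those shares. In WT blood 5 of these markers rose and 0 fell, where 1584 of all 15787 genes were higher and 13.6% lower. At 7 Gy, 10 were lower in KO-labelled than in WT blood, where 17.8% of all genes were lower. The summed level of the NK and cytotoxic markers was 1.97 to 2.66 in KO-labelled 7 Gy and 2.06 to 2.87 in KO-labelled 0 Gy blood. It was 2.81 to 3.65 in WT 7 Gy and 1.88 to 2.03 in WT 0 Gy blood. The 2 WT 7 Gy samples highest in Cxcr3 and Cxcr6 read 3.59 and 3.65 on this sum, the highest of all samples. Of 12 T cell markers, 8 fell in KO-labelled blood, where 34.6% of all genes were lower, and 2 in WT, where 13.6% were. The T cell marker Cd8a met the filter only through 0 Gy arrays, which favoured a fall in it.

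Neutrophil markers ran beside Cxcr4 in irradiated blood and not at 0 Gy. Of 12, 5 fell after 7 Gy in KO-labelled blood, where 34.6% of all genes were lower, and 1 in WT, where 13.6% were. Both counts were close to those shares. At 7 Gy, 8 were lower and 1 higher in KO-labelled than in WT blood, where 17.8% of all genes were lower and 4.58% higher. The neutrophil sum was 3.76 to 5.36 in KO-labelled 7 Gy and 4.58 to 5.96 in KO-labelled 0 Gy blood. It was 5.70 to 7.37 in WT 7 Gy and 6.40 to 6.83 in WT 0 Gy blood. KO-labelled 7 Gy replicate 6 had the highest Cxcr4 and the highest neutrophil sum of its group, and WT 7 Gy replicates 1 and 2, lowest in Cxcr4, read 5.70 and 5.76 against 7.19 to 7.37 for replicates 3 to 5. At 0 Gy every KO-labelled sample was below every WT sample in the neutrophil sum, while Cxcr4 was higher in KO-labelled blood on all 5 slides. The hepatocyte sum was 0.17 to 2.57 in KO-labelled 7 Gy, −1.07 to 1.38 in KO-labelled 0 Gy, 2.44 to 6.56 in WT 7 Gy and −0.81 to −0.31 in WT 0 Gy blood.

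**Figure D4:**
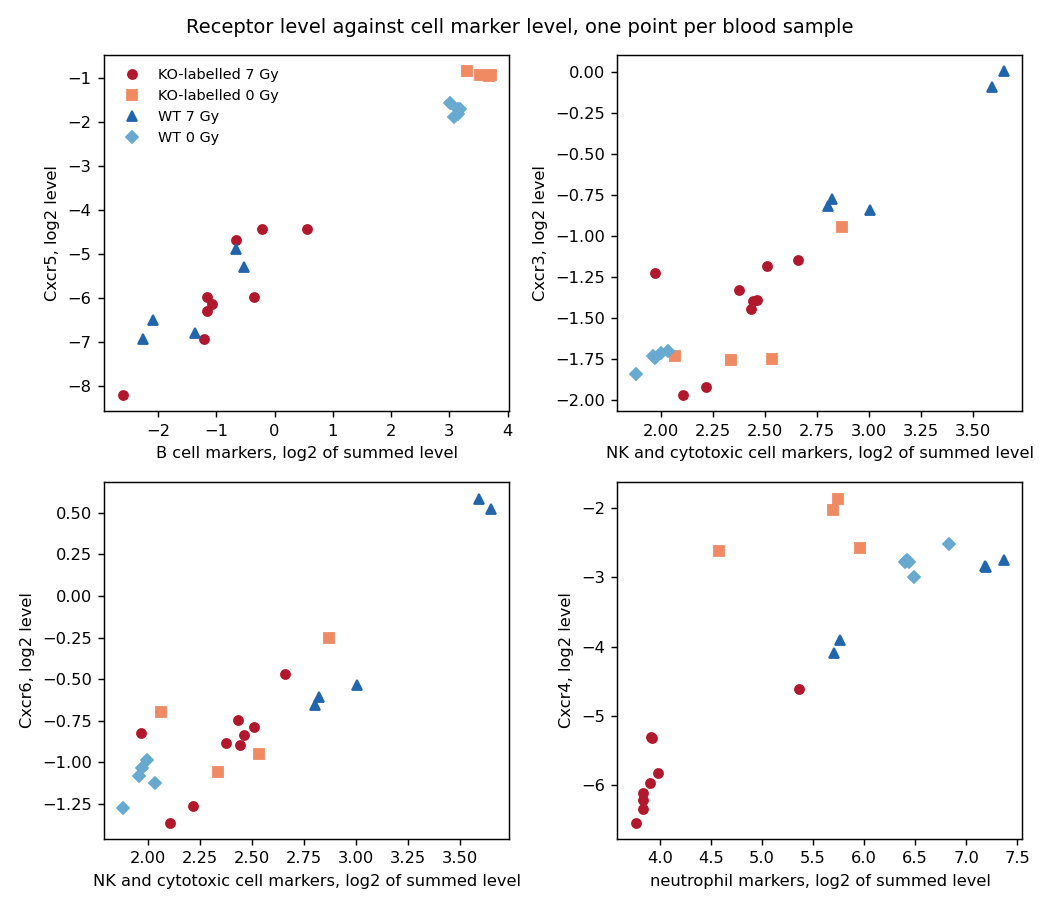
Log2 level of 4 receptors (vertical axes) against the log2 of the summed level of a cell marker list (horizontal axes), 1 point per sample. Cxcr5 follows the B cell sum, Cxcr3 and Cxcr6 the NK and cytotoxic sum, and in irradiated blood Cxcr4 follows the neutrophil sum, with KO-labelled 7 Gy replicate 6 highest in its group.

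Among 16 other chemokine receptors, 10 were tested. In KO-labelled blood 4 fell, where 34.6% of all genes were lower, with the log2 change and its SE in parentheses. Ccr7, which takes T and B cells into lymph nodes (−4.93 ± 0.27), and Ccr2, on classical monocytes (−1.29 ± 0.22), fell. Cx3cr1, on monocytes and NK cells (−4.82 ± 0.36), and Ccr3, on eosinophils (−2.73 ± 0.33), also fell. The sizes for Cx3cr1 and Ccr3 are uncertain, as they were well above background on 2 and 3 of the 9 KO-labelled 7 Gy arrays. In WT blood, where 13.6% of all genes were lower, 4 fell: Ccr7 (−4.38 ± 0.28), Cx3cr1 (−2.80 ± 0.37), Ccr2 (−1.79 ± 0.23) and Ackr1, an atypical receptor of red cells and endothelium (−1.41 ± 0.51). The Ackr1 call (adjusted p = 0.0492) ended under every other scaling, with the slide as a block (adjusted p = 0.0567) and without any of WT 7 Gy replicates 3 to 5 (−1.33 to −1.23, adjusted p = 0.105 to 0.125). The neutrophil receptor Cxcr2 was lower in KO-labelled than in WT blood at 7 Gy (−3.33 ± 0.66, adjusted p = 0.000891), a call that ended without WT 7 Gy replicates 3 to 5 (−2.20, adjusted p = 0.158). Under normexp the KO-labelled calls of Cx3cr1 (adjusted p = 0.0542), Ccr3 (0.725) and Ccr2 (0.517) ended. So did the WT calls of Cx3cr1 (0.337), Ccr2 (0.170) and Ackr1 (0.672). The median change of the list was −0.89 in KO-labelled and −0.49 in WT blood.

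Of 13 ligands of the members, 10 were tested. In KO-labelled blood 2 rose, where 12.4% of all genes were higher: Cxcl13, the ligand of Cxcr5, by 4.10 ± 0.79 (adjusted p = 0.000211), and Cxcl16, the ligand of Cxcr6, by 0.86 ± 0.26 (adjusted p = 0.00835). In WT blood 5 ligands rose, where 1584 of all 15787 genes were higher. Among these ligands were Cxcl13, by 2.58 ± 0.84 (adjusted p = 0.0272), and Ccl5, by 0.86 ± 0.25 (adjusted p = 0.0146). Cxcl10, the ligand of Cxcr3, was at least 2.43-fold higher in WT 7 Gy than in WT 0 Gy blood (adjusted p = 0.000236). Cxcl12, the ligand of Cxcr4, was at least 3.09-fold higher (adjusted p = 0.000341). Cxcl12 met the filter of 5 arrays only through 7 Gy arrays, 3 of 5 in WT and 2 in KO-labelled blood. The filter therefore favoured a rise in this gene. The calls of Cxcl10 and Cxcl12 ended without WT 7 Gy replicates 3 to 5 (adjusted p = 0.0649 and 0.141). Those of Cxcl13 and Ccl5 ended without replicates 1 and 2 (adjusted p = 0.219 and 0.162). The WT call of Cxcl13 also ended with no filter (0.0567), with the looser averaging of close arrays (0.238) and without WT 7 Gy replicate 1 (0.0699) or 2 (0.0743). Under normexp the WT calls of Cxcl13 (0.0915), Ccl5 (0.144), Cxcl10 (0.361) and Cxcl12 (0.272) all ended. So did the KO-labelled call of Cxcl16 (0.358). The other settings were not read for Cxcl16 in WT blood. The list's median change was 0.15 in KO-labelled and 0.72 in WT blood.

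Of 17 genes of receptor signalling and desensitisation, 15 were tested. In KO-labelled blood 5 rose and 7 fell, where 46.9% of all genes were called, and in WT blood 3 rose and 1 fell, a share near the 23.6% called over all genes. Rgs18, a GTPase activator for Gi in platelets, rose by 1.17 ± 0.21 in KO-labelled blood (adjusted p = 0.000105). Of 8 platelet markers, 7 rose in KO-labelled blood (median change 1.75), where 12.4% of all genes were higher. In WT blood 5 of them rose (median change 0.87), where 1584 of all 15787 genes were higher. The part of the platelet markers in the Rgs18 rise was not tested. Pik3cg, the PI 3-kinase of leukocyte migration, fell in KO-labelled blood by 1.23 ± 0.28 (adjusted p = 0.000993), and Rgs2 by 1.20 ± 0.25 (adjusted p = 0.000492). Rgs1, which damps chemokine signals in lymphocytes, rose in WT blood by 1.52 ± 0.35 (adjusted p = 0.00245), Arrb1, a beta-arrestin, by 0.64 ± 0.18 (adjusted p = 0.0136), and Gnai2, a Gi subunit, by 0.58 ± 0.18 (adjusted p = 0.0198). The Rgs1 call ended under normexp (adjusted p = 0.280). Those of Arrb1 and Gnai2 ended under normexp, in the authors' value table (adjusted p = 0.110 for each), with no filter, with the looser averaging of close arrays and without WT 7 Gy replicates 3 to 5 (adjusted p = 0.352 for Arrb1 and 0.163 for Gnai2). That of Gnai2 also ended with the 75th percentile over all probes (0.0541), without WT 7 Gy replicates 1 and 2 (0.0523) and without WT 0 Gy replicate 2 (0.0542) or 4 (0.0550). Grk3, a receptor kinase, was well above background on 0 arrays at 7 Gy, so it passed the filter through 0 Gy arrays alone. It was at least 2.08-fold lower in KO-labelled blood (adjusted p = 2.89e-06) and at least 1.67-fold lower in WT blood (adjusted p = 0.00246). The direction of Pik3cg and Grk3 turned under normexp. At 7 Gy, 5 of the 15 were lower in KO-labelled than in WT blood and 0 higher, where 17.8% of all genes were lower. Among the 5 was Rac2, a GTPase of migration, 2.54-fold lower (−1.34 ± 0.18, adjusted p = 2.77e-05).

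For each receptor the 3 tested genes closest in pattern were found by Pearson's r of deviations from the group means over 23 samples, given as a description. Only named genes with a value in every sample were searched, which left out Gm, Rik, LOC and accession-like names. The samples share slides and arrays, and the split of the WT 7 Gy samples enters every r. Cxcr3 was closest to Ccl5 (r = 0.93), Cxcr6 (0.92) and Tyro3 (0.89). Cxcr6 was closest to Serpina3g (0.95), Trav3-3 (0.93) and Cxcr3 (0.92). Cxcr5 was closest to Cd79b, the B cell receptor chain (0.95), Mzb1 (0.95) and Fcmr (0.94). Cxcr4 was closest to Cxcr1 (0.83), Stfa1 (0.81) and Slc40a1 (0.81). Ccr6 was closest to Atg12 (0.78), Gpx2 (0.78) and Cd6 (0.76), and Ccr9 to Serpinb6b (0.87), Cir1 (0.85) and Celsr1 (0.80). At 7 Gy Ccr6 was well above background on 1 of 9 KO-labelled and 0 of 5 WT arrays. Its SD was 0.65 and 0.79 in these groups, against 0.28 and 0.16 at 0 Gy. The r values of Ccr6 therefore rest largely on dim readings.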

How the data were processed

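The authors deposited scanner output of Agilent Feature Extraction 12.0.2, whose processed intensity per spot is background subtracted and detrended on each array and unscaled across arrays, per the file headers. The deposited value table holds log2 values that equalled the log2 of the same processed signal (at least 10) plus a constant of 0 to 1.54 per array. Its columns' medians ran from 5.75 to 7.18; why a constant was added is not given in the sources used here. Some dye labels name another dye than the labelling protocol's Cy3, and each file holds the green channel only.

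Processed signals were scaled to each array's 75th percentile over 7803 probes. Spots were averaged, outlier spots left out, and 19651 of 39429 probes well above background on at least 5 arrays kept; the brightest probe stood for each of 15787 genes. limma 3.58.1 in R 4.3.3 fitted the 4 groups once, giving 5 two-sided comparisons with Benjamini-Hochberg adjusted p over all genes, called under 0.05. Errors of changes are SE. The fit was tested on simulated data. Receptors, lists and rules were chosen with earlier results of these data known. Every receptor was named, with up to 4 called genes of each receptor, ligand or signalling list having the largest change, plus Ccr7, Ccr2, Cx3cr1, Cxcr2 and Gadd45a. Cxcl16 in WT blood was named besides. RefSeq (GRCm38.p6) gave promoters. The alternatives were background correction, scaling, probe filter, probe choice, near-identical arrays, slide and replicate blocks, noisy arrays and left-out arrays.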

Additional observations from a re-analysis of the deposited data

Results flagged for a closer look

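The response to 7 Gy differed between KO-labelled and WT blood, by the interaction term, for Cxcr4 (−3.02), Ccr9 (−1.28), Cxcr3 (−1.14) and Cxcr6 (−1.12, all log2).

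Of 28 combinations of probe and group, 4 held a sample far from the others; chance gives about 1 in 20. KO-labelled 0 Gy replicate 5 was high in Cxcr3 (−0.95). KO-labelled 7 Gy replicate 5 was low on the upstream Cxcr6 probe (−6.01). For Ccr9, KO-labelled 0 Gy replicate 2 was low (−4.86) and WT 0 Gy replicate 2 was high (−4.43), in a group whose whole range was small.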

How the results depend on the processing

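Of the 4, 4, 0, 4 and 4 receptors called in KO-labelled blood, in WT, between labels at 0 Gy, between labels at 7 Gy and for the interaction, normexp background correction left 2, 1, 0, 0 and 0; it adds 50 to every signal. For the interaction, median scaling left 2, quantile normalization 1, the 75th percentile over all probes 1, 1 in the authors' value table, no filter 2, averaging arrays by a looser limit 1, and leaving out WT 7 Gy replicates 1 and 2, chosen after seeing the data, 2. Between labels at 7 Gy, the authors' value table and the looser averaging left 2. Where only probes above background on all arrays were kept, 2 receptors could be tested, and 0 in KO-labelled blood, 2 in WT, 2 between labels at 7 Gy and 2 for the interaction were called. Called values turned only under normexp (Ccr9 0.21, Grk3 0.20 and Pik3cg 0.28 in KO-labelled blood, Grk3 0.72 in WT) and, for Grk3 in WT, in the authors' value table (0.15). With a replicate block, 4 were called in KO-labelled blood, 4 in WT, 0 at 0 Gy, 4 at 7 Gy and 4 for the interaction, and a slide block changed no call of Cxcr3, Cxcr4, Cxcr5, Cxcr6, Ccr6 or Ccr9; of the other receptors it ended that of Ackr1 in WT (adjusted p = 0.0567) and called Ccr2 between labels at 0 Gy (−1.15, adjusted p = 0.0173) and the Cxcr2 interaction (−3.44, adjusted p = 0.0154). Replicate numbers share a slide, but the deviations of same-numbered samples correlated from −0.23 to 0.71, so the block stands as an alternative. Calls over all genes under normexp were 1382, against 7406, in KO-labelled blood, 746, against 3725, in WT, 228, against 3531, between labels at 7 Gy, and 0, against 2379, for the interaction; the looser averaging, which takes more close pairs of arrays as 1 sample, left 1727 in WT, 1343 between labels at 7 Gy and 202 for the interaction. Leaving out each replicate in turn kept every count of receptors within 1.5 times. Signal over background limits Ccr1, Ccr6 after 7 Gy and the second Ccr9 probe. In KO-labelled 7 Gy blood it also limits Cxcr5, Cxcr4 and the tested Ccr9 probe, well above background on 5, 6 and 7 of 9 arrays.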
